A study of Mus musculus with 15 samples.

Results

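The suppressors of cytokine signalling form a family of 8 genes, *Socs1* to *Socs7* and *Cish*. They were taken by gene symbol from the table of expression values, in which 21669 genes have a symbol, and all 8 were found and all passed the filter on low values (1 RPKM or more in 3 or more of 15 columns). The members were chosen by name, and no measured value or threshold entered the rule. The family itself was picked with earlier results of these data in view, so the tests given here describe where its genes stand among all genes tested and are not independent evidence. RNA-seq was performed on B cells from female C57BL/6J mice in 5 groups of 3 libraries. Naive B cells (nB) were splenic cells left after depletion of CD43+ cells, with no stimulation or drug. Activated B cells (actB, sorted as B220+GL7+CD138-) and plasmablasts (Pb, sorted as CD138+) came from 3-day cultures with LPS, IL2, and IL5 that held either DMSO, the vehicle, or 2 μM of GSK343, an inhibitor of the histone methyltransferase EZH2. For Pb with GSK343 the labels name Il6 where those of the other cultures name Il5, while the study's methods give IL5 for every culture. If these labels hold, the drug and a change of cytokine cannot be told apart in Pb. All 4 cultured groups share LPS and IL2, and nB were not cultured, so that sort, culture, and stimulation cannot be told apart in any comparison with nB.

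SOCS proteins are feedback inhibitors of cytokine receptors. A cytokine brings its receptor chains together, JAK kinases on these chains phosphorylate the receptor and STAT transcription factors, and STATs then switch on target genes that include *Cish*, *Socs1*, *Socs2*, and *Socs3*. The SH2 domain of a SOCS protein binds phosphorylated tyrosines, and its SOCS box recruits elongins and a cullin so that bound proteins are marked with ubiquitin. *Cish* and *Socs2* are best known as targets and brakes of STAT5, which IL2 and IL5 activate, *Socs1* of interferon signalling, and *Socs3* of IL6-type receptors and STAT3. *Socs4* to *Socs7* are less bound to cytokine induction.

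To show the start-site sequence of inducible members, the promoters of *Cish* and *Socs3* are printed from a table of RefSeq promoters (GRCm38.p6), in which 4 of the 8 members were matched (*Cish*, *Socs1*, *Socs3*, and *Socs4*). Capitals mark matches to TTCNNNGAA, the letters STAT dimers are known to bind, which reads the same on both strands. The first lies at chr9:107296409-107296688 on the plus strand and ends 30 bases after the start site, and the second lies at chr11:117969367-117969616 on the minus strand and ends at the start site.
Cish: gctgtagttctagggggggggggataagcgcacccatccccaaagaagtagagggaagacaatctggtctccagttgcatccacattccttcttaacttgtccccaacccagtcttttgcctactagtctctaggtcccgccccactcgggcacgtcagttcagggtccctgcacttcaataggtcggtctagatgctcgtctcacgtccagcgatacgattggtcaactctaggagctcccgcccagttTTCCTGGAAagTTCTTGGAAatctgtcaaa
Socs3: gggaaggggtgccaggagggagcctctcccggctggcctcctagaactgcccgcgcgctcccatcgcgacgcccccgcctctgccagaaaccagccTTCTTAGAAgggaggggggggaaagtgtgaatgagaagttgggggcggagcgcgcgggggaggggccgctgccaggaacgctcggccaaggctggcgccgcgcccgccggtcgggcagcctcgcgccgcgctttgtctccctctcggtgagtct
In *Cish* TTCCTGGAA began at base 1 and TTCTTGGAA at base 12 after the start site, and in *Socs3* TTCTTAGAA began at base -154. No match was found in the windows of *Socs1* and *Socs4*. Among 32851 promoters of 300 bases, 8.30% held at least 1 match and 0.457% held at least 2, as *Cish* did. A match describes letters only.

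Between 19421830 and 26307413 reads were counted per library. The nB libraries numbered 1 and 2 differed by less than the sampling noise (chi-square per degree of freedom 0.00947, against at least 3.57 for every other pair of replicates) and were counted as 1 sample, so nB has n = 2. The summed level of 5 plasmablast markers was 3070 to 3220 RPKM (reads per kilobase of exon per 1000000 reads) in Pb with DMSO, 485 to 522 in actB with DMSO, and 214 to 231 in nB. The sum followed the order of the labels, but not every marker did. *Prdm1*, *Xbp1*, and *Jchain* were higher in actB with DMSO than in nB. *Sdc1* was lower, at 0.665 ± 0.121 RPKM against 5.17 ± 0.0764 in nB, and *Irf4* was 109.5 ± 2.71 against 119.7 ± 10.9. Naive cells also held RNA of other cells: 9 myeloid markers summed to 204 to 257 RPKM in nB and to at most 14.1 in any cultured library, and 5 T cell markers to 19.4 to 20.8 against at most 0.653. Replicate 2 stood apart in the cultured groups (chi-square per degree of freedom 16.7 to 29.7 against its actB replicates, and 3.80 and 6.07 between replicates 1 and 3). The study calls the libraries of a group biological replicates, and their titles are numbered m1 to m3. Neither says that each number is a separate mouse or culture, so p-values measure the spread between these samples. In bulk RNA, fewer cells that express a gene and less RNA per cell cannot be told apart.

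The make-up of the family changed with cell stage. In nB *Socs4* held 38.3% ± 3.30 (SD, n = 2) of the summed RPKM of the 8 genes and *Socs5* 18.4% ± 0.454, while *Cish* held 0.802% ± 0.277. In actB with DMSO *Socs3* held 45.4% ± 1.49 (n = 3). In Pb with DMSO *Cish* held 26.4% ± 2.53 and *Socs2* 20.2% ± 0.992, and *Socs3* held 9.25% ± 1.17. The summed level was 57.2 ± 3.52 RPKM in nB. It was 117.0 ± 22.6 RPKM with DMSO and 172.5 ± 14.6 with GSK343 in actB, and 98.7 ± 9.71 with DMSO and 123.1 ± 11.3 with GSK343 in Pb.

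**Figure D1:**
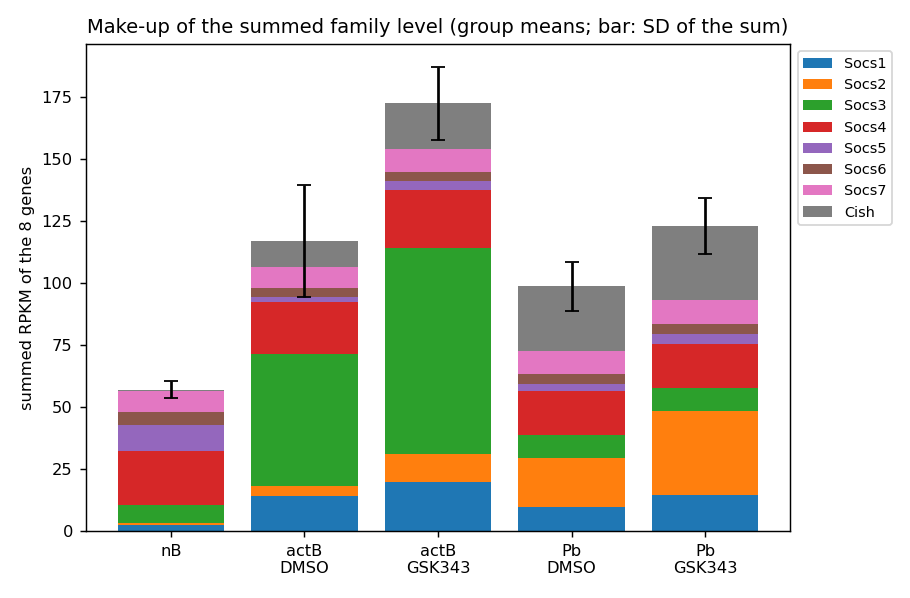
Stacked mean RPKM of the 8 genes (y axis) in the 5 groups (x axis), with the SD of the summed level as error bars (n = 2 for nB and n = 3 for the others). *Socs3* (green) is the largest part in both actB groups, and *Cish* (gray) and *Socs2* (orange) are the largest parts in both Pb groups.

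*Socs2* (chromosome 10, 94847996 to 94879814, minus strand, mm9), which restrains growth hormone and STAT5 signalling, was the member whose 5 groups stood in a strict order with no overlap. Its level was 0.767 and 0.778 RPKM in nB. It was 4.25, 4.12, and 3.88 RPKM in actB with DMSO and 10.9, 11.6, and 11.99 in actB with GSK343. It was 18.5, 20.9, and 20.1 RPKM in Pb with DMSO and 33.3, 34.2, and 34.1 in Pb with GSK343. Every step in this order, from nB through actB (DMSO, then GSK343) to Pb (DMSO, then GSK343), separated all libraries of 1 group from all of the next. The share of all genes whose groups are apart in this way was not computed. Replicate 2 was 1.01 to 1.08 times the mean of replicates 1 and 3 in the cultured groups, so *Socs2* did not move with the replicate that stood apart.

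*Cish* (chromosome 9, 107198357 to 107205115, plus strand, mm9), a STAT5 target that restrains IL2 receptor signalling, was low in nB and higher at each stage. Its level was 0.361 and 0.546 RPKM in nB, or 18 and 27 reads. It was 7.90, 14.3, and 8.81 RPKM in actB with DMSO and 12.7, 24.9, and 17.3 in actB with GSK343. It was 21.5, 31.5, and 25.4 RPKM in Pb with DMSO and 26.5, 34.9, and 28.3 in Pb with GSK343. The cultured groups were all above nB, and Pb with DMSO was above actB with DMSO, but neighbouring groups otherwise overlapped. Replicate 2 was the highest library in each cultured group, at 1.27 to 1.71 times the mean of the other two. Exons of *Cish* overlap those of *Gm17040* and *Gm17041* on the other strand, and the strand setting of the counting is not stated, so some of its reads could belong to them.

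*Socs3* (chromosome 11, 117827393 to 117831361, minus strand, mm9), the brake on gp130 receptors, was highest in activated cells. Its level was 8.37 and 5.87 RPKM in nB. It was 44.5, 67.1, and 48.3 RPKM in actB with DMSO and 88.2, 84.3, and 76.3 in actB with GSK343. It was 9.61, 9.55, and 8.08 RPKM in Pb with DMSO and 8.19, 11.5, and 8.83 in Pb with GSK343. Both actB groups were apart from each other and from the rest, and the ranges of nB and both Pb groups overlapped.

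*Socs1* (chromosome 16, 10783901 to 10785629, minus strand, mm9), which blocks JAK kinases directly, varied with the replicate number. It was 3.10 and 2.08 RPKM in nB, 9.74, 21.0, and 11.8 in actB with DMSO, and 14.97, 29.0, and 15.3 in actB with GSK343. It was 7.30, 13.4, and 8.87 RPKM in Pb with DMSO and 10.6, 20.9, and 12.5 in Pb with GSK343. Replicate 2 was 1.66 to 1.96 times the mean of replicates 1 and 3, and all 4 cultured groups overlapped with their neighbours in order. *Gbp2*, an interferon-induced GTPase, also varied widely in actB with DMSO (347.4 ± 120.0 RPKM, n = 3).

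*Socs5* (chromosome 17, 87507019 to 87536923, plus strand, mm9), linked to IL4 and EGF receptor signalling, was highest in nB. It was 10.8 and 10.2 RPKM in nB, 1.5, 2.59, and 1.76 in actB with DMSO, and 3.17, 3.80, and 3.28 in actB with GSK343. It was 2.68, 3.18, and 2.71 RPKM in Pb with DMSO and 3.92, 4.004, and 3.60 in Pb with GSK343. nB was above all cultured libraries, and actB with DMSO was below all others.

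The other members varied least. *Socs4*, a SOCS protein with a long amino-terminal part, lay between 16.8 and 25.1 RPKM in all libraries, *Socs6*, which binds receptor tyrosine kinases such as KIT, between 3.57 and 5.45, and *Socs7*, known from insulin signalling, between 7.78 and 10.3. In *Socs7* every pair of neighbouring groups overlapped.

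**Figure D2:**
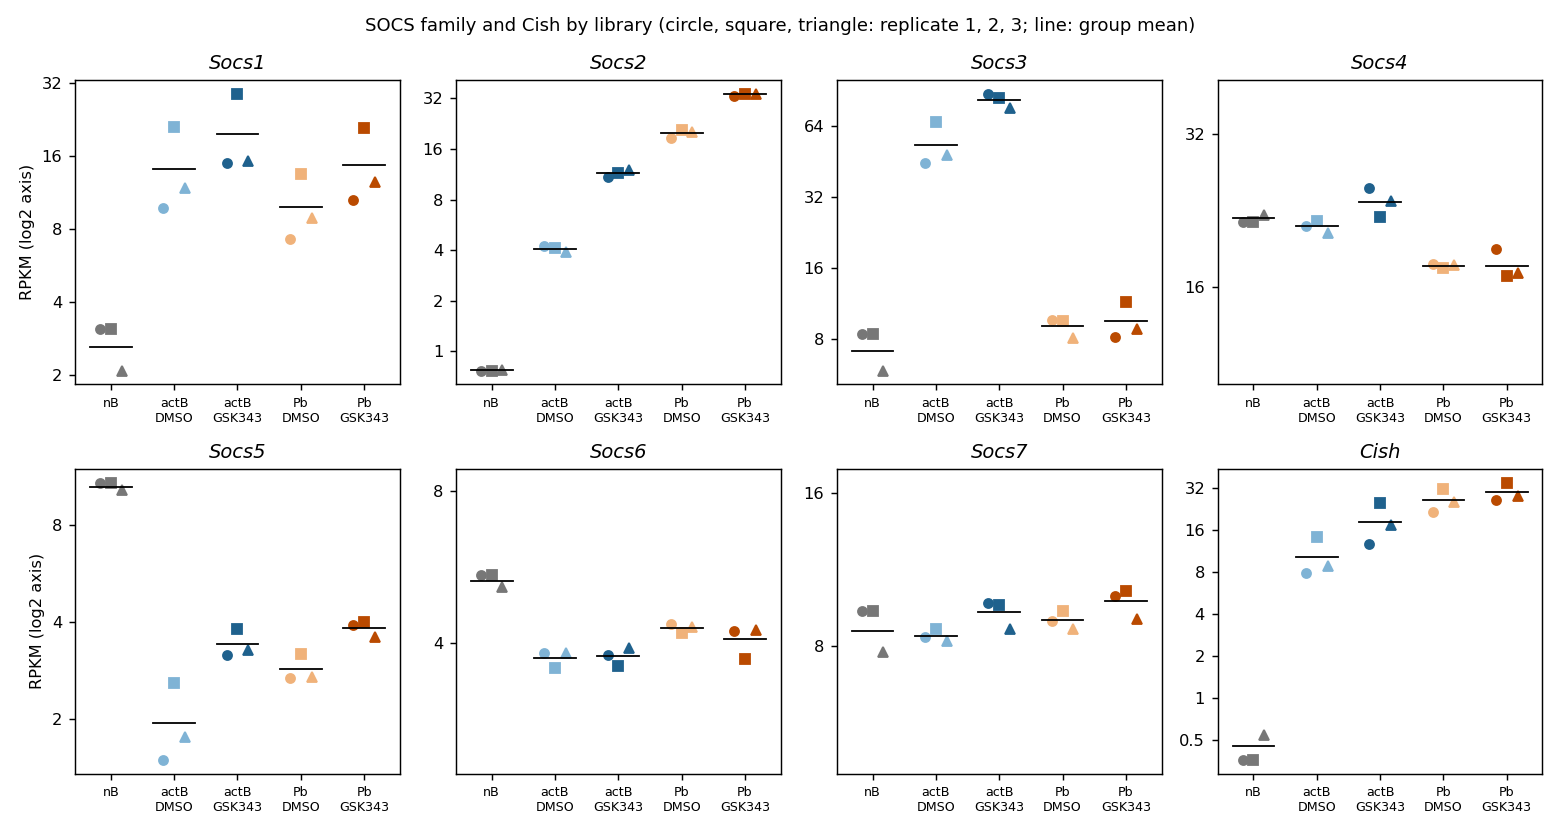
RPKM on a log2 axis (y axis, a separate range in each panel) of each gene in every library of the 5 groups (x axis), with circles, squares, and triangles for replicates 1, 2, and 3 and a line at the group mean. The circle and square of nB are the same library; *Socs2* climbs through the groups without overlap from 0.767 to 34.2 RPKM, and *Socs3* peaks in actB.

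The comparison of actB with nB asked which genes change on activation. Each gene was tested with limma over 11299 genes on log2(RPKM + 0.25), a scale that understates changes of low genes, and was called at a Benjamini-Hochberg adjusted p under 0.05. Of the 8 members 4 rose and 2 fell, where 77.2% of all genes were called (40.9% higher and 36.3% lower), so the share of members called was near the background. *Cish* rose by 3.87 ± 0.286 on the log2 scale (SE; adjusted p = 7.29e-08), *Socs3* by 2.86 ± 0.189 (2.64e-08), *Socs1* by 2.29 ± 0.396 (0.00017), and *Socs2* by 2.08 ± 0.0658 (3.01e-11). *Socs5* fell by 2.32 ± 0.163 (4.57e-08) and *Socs6* fell by 0.48 ± 0.0749 (7.68e-05). The 95% interval of the log2 difference was -0.20 to 0.09 for *Socs4* and -0.21 to 0.16 for *Socs7*. These 6 calls stood in all 28 other settings, each library left out included. The myeloid marker *Lyz2* fell from 166.2 ± 20.1 RPKM in nB to 0.422 ± 0.159 in actB with DMSO, and its part, or that of other cells in nB, in the members that fell was not tested.

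The comparison of Pb with actB, both with DMSO, asked how the family differs between the 2 kinds of sorted cells. Over all genes the median log2 change was -0.12, and 69.7% were called (27.3% higher and 42.4% lower), or 3086 genes higher and 4791 lower, against 3813 and 3899 when libraries were scaled to a common median. Of the members 4 were higher in Pb and 2 lower. *Socs2* was higher by 2.21 ± 0.0589 on the log2 scale (limma adjusted p = 3.24e-11), *Cish* by 1.35 ± 0.255 (0.000443), *Socs5* by 0.53 ± 0.146 (0.00631), and *Socs6* by 0.18 ± 0.0670 (0.0286). *Socs3* was lower, with a log2 change of -2.50 ± 0.169 (4.83e-08), and so was *Socs4*, with -0.25 ± 0.0591 (0.00204). The pair *Socs2* and *Socs3*, both of which rose on activation, differed in opposite directions in plasmablasts. *Socs1*, at -0.48 with an interval of -1.25 to 0.29, was not called without the replicate number (adjusted p = 0.246) and was lower with the replicate number as a block (0.00519). The call of *Socs6* was lost without actB replicate 2 (0.0942), Pb replicate 1 (0.0771), or Pb replicate 3 (0.0624) with DMSO. *Socs7*, at 0.10 (0.263), was called when libraries were scaled to a common median (0.21, adjusted p = 0.0363).

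Against nB, Pb with DMSO had 3 members higher and 3 lower, where 80.6% of all genes were called (39.5% higher and 41.1% lower). *Cish* differed most, by 5.23 ± 0.286 on the log2 scale (limma adjusted p = 2.35e-09), followed by *Socs2* at 4.29 ± 0.0658 (1.07e-13) and *Socs1* at 1.81 ± 0.396 (0.00097). *Socs5* remained lower at -1.79 ± 0.163 (3.59e-07), and *Socs4* (-0.31) and *Socs6* (-0.29) were lower by less. *Socs3*, at 0.36 with an interval of -0.05 to 0.77, was not called (adjusted p = 0.0989). It was called when nB replicate 1 was left out (0.61, adjusted p = 0.0303) and with the block when the merged nB library was given number 2 (0.0148). This comparison and the one of actB with nB share the nB libraries.

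**Figure D3:**
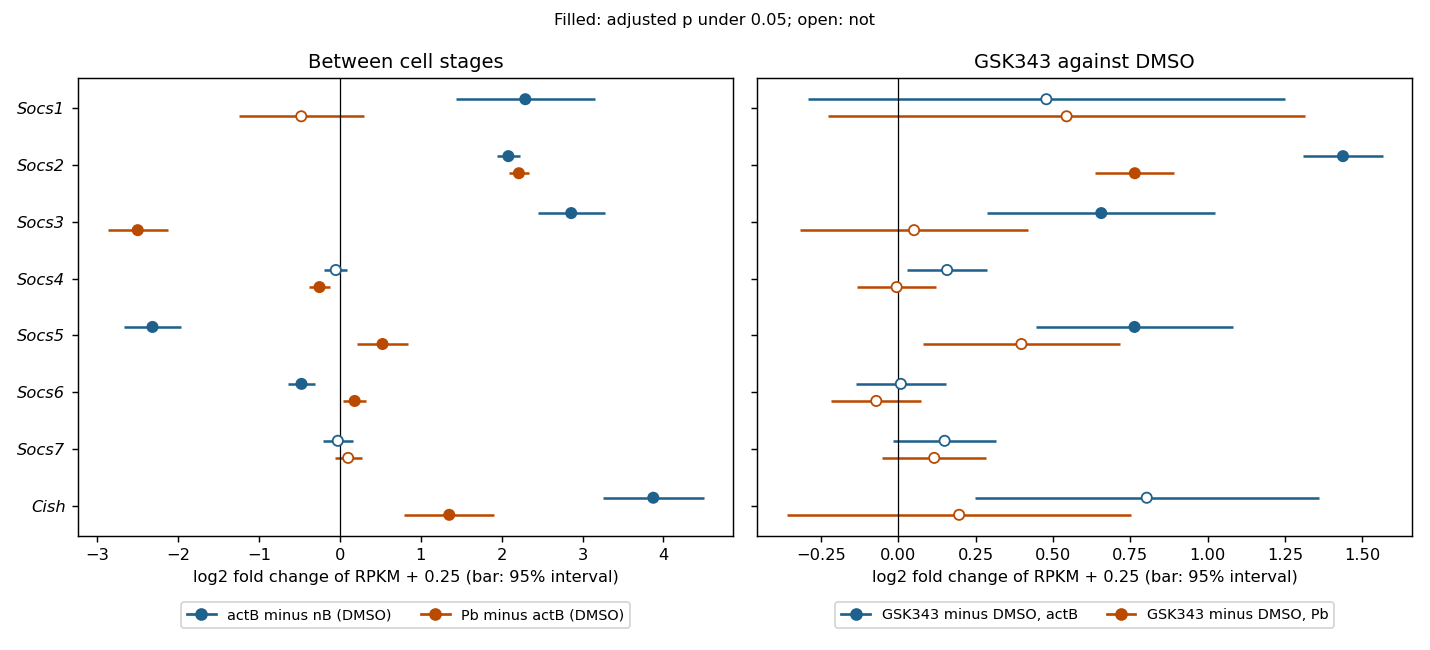
Log2 fold change (x axis) with 95% intervals for each gene (y axis) between cell stages with DMSO (left) and for GSK343 against DMSO (right), with filled points for adjusted p under 0.05. On the left *Socs3* lies at 2.86 for actB minus nB and at -2.50 for Pb minus actB; on the right *Socs2* lies furthest from 0 in both cell types.

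The drug comparison asked which genes change when EZH2, which places the repressive mark H3K27me3, is inhibited. In actB 3 of the 8 members rose with GSK343 and none fell, where 10.4% of all genes were called (8.20% higher and 2.16% lower). The 926 genes higher and 244 lower became 690 and 370 with median scaling, 606 and 378 with quantile normalization, and 816 and 425 in edgeR. *Socs2* was 2.56, 2.81, and 3.09 times its DMSO level in replicates 1, 2, and 3. Its log2 change of 1.44 ± 0.0589 (limma adjusted p = 1.30e-07) had the smallest p of the 11299 genes and ranked 20 by size. *Socs5* was 2.11, 1.47, and 1.86 times its DMSO level (0.76 ± 0.146, adjusted p = 0.00676), and *Socs3* 1.98, 1.26, and 1.58 times (0.66 ± 0.169, adjusted p = 0.0294). For these 3 genes all GSK343 libraries were above all DMSO libraries, but the same held for *Socs4* and *Socs7*, which were not called. The share of all genes without overlap was not computed. The call of *Socs3* was not firm: its adjusted p was 0.117 without DMSO replicate 1, 0.101 without DMSO replicate 3, and 0.0915, 0.0596, and 0.0562 without GSK343 replicate 1, 2, or 3. With only the actB libraries in the fit it was 0.0910, and that of *Socs5* was 0.0942. Both genes were called with the replicate number as a block, in edgeR, and with median scaling or quantile normalization.

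*Cish* and *Socs1* in actB depended on whether the replicate number was used. *Cish* was 1.60, 1.74, and 1.96 times its DMSO level, with a log2 change of 0.80 ± 0.255 (limma adjusted p = 0.0667), and was called with the number as a block (0.000439). It was also called without DMSO replicate 2 (1.05, adjusted p = 0.0178), without GSK343 replicate 1 (1.04, 0.0359), and without replicate 2 in every cultured group (0.81, 0.0125). *Socs1* was 1.54, 1.38, and 1.299 times its DMSO level, at 0.48 ± 0.354 (adjusted p = 0.459), and was called with the block (0.0234). With the block 5 of the 8 members rose in actB, and 1659 genes of all tested rose and 758 fell, against 926 and 244 without it. *Socs4*, at 0.16 with an interval of 0.03 to 0.29 (adjusted p = 0.114), was called without GSK343 replicate 2 (0.0495), and the intervals were -0.02 to 0.32 for *Socs7* and -0.14 to 0.15 for *Socs6*.

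**Figure D4:**
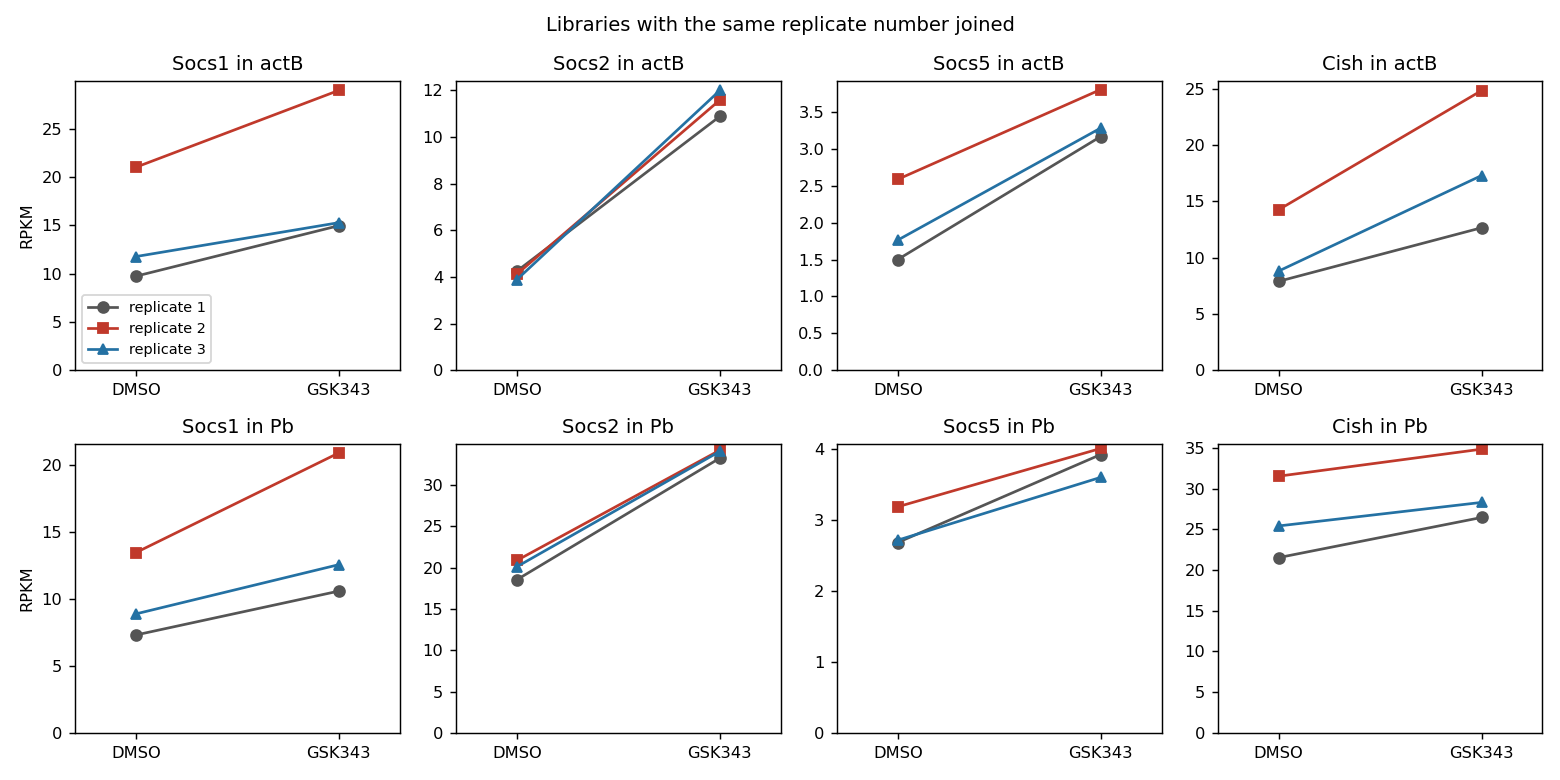
RPKM (y axis, from 0, a separate range in each panel) of *Socs1*, *Socs2*, *Socs5*, and *Cish* with DMSO and with GSK343 (x axis) in actB (top) and Pb (bottom), with libraries of the same replicate number joined. Every line of these genes rises, and for *Socs1* and *Cish* replicate 2 (red squares) lies above replicates 1 and 3 throughout. Some members that are not drawn fell with GSK343. *Socs6* was 0.971, 0.891, and 0.989 times its DMSO level in Pb, and *Socs3* was 0.852 times in Pb replicate 1.

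Markers of other cells and stages moved with GSK343 in actB. The 5 plasmablast markers summed to 549 to 669 RPKM with GSK343 against 485 to 522 with DMSO, and 2 of the 5 rose (*Jchain*, the joining chain of IgM and IgA, by 0.37, limma adjusted p = 0.0277, and *Sdc1*, which encodes CD138, by 0.41, 0.0422). The part of these in the rise of *Socs2*, which was higher in Pb, was not tested. The 9 myeloid markers summed to 8.31 to 14.1 RPKM against 4.14 to 5.44, of which *Itgam*, an integrin chain, made up most (9.95 ± 3.12 against 4.27 ± 0.664). Of the 8 of these markers that were tested 2 rose, *Itgam* (log2 change 1.14, limma adjusted p = 0.00376) and *Adgre1*, the macrophage antigen F4/80, from 0.147 ± 0.0208 to 0.437 ± 0.0433 RPKM (0.79, 0.0156). *Lyz2*, the lysozyme of macrophages and granulocytes, was 0.422 ± 0.159 RPKM with DMSO and 0.772 ± 0.395 with GSK343 (0.55, 0.265). The granulocyte markers *S100a8* and *S100a9* had no read in any cultured library, and *Csf1r*, the receptor of macrophages, was at most 0.0347 RPKM on average in a cultured group. Over all genes 8.20% rose with GSK343 in actB. The part of myeloid RNA in the members that rose was not tested.

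In Pb *Socs2* alone was called of the 8 members, where 12.9% of all genes were called (7.90% higher). It was 1.79, 1.64, and 1.70 times its DMSO level, a log2 change of 0.76 ± 0.0589 (limma adjusted p = 3.42e-05) that ranked 6 by p and 153 by size. *Socs5* was 1.46, 1.26, and 1.33 times its DMSO level with no overlap (0.40 ± 0.146, adjusted p = 0.0976) and was called with the block (0.0159), without actB DMSO replicate 2 (0.0162), and without replicate 2 in every cultured group (0.0115). *Socs1* was 1.45, 1.55, and 1.41 times its DMSO level (0.54 ± 0.354, adjusted p = 0.367) and was called with the block (0.0111), so that 3 members rose with the block. The block gave 1553 genes higher and 1227 lower in Pb, against 893 and 565 without it. The interval of the log2 difference was -0.36 to 0.75 for *Cish*, -0.32 to 0.42 for *Socs3*, -0.13 to 0.12 for *Socs4*, -0.22 to 0.08 for *Socs6*, and -0.05 to 0.28 for *Socs7*. The cytokine named in the labels changes with the drug in this comparison. Stage markers moved with GSK343 in Pb too. Of 7 naive B cell markers 3 fell in Pb and none rose (median log2 change -0.626), against 1 that fell in actB (-0.0699). Among all 11299 genes tested, 893 rose and 565 fell with GSK343 in Pb, and 244 fell in actB. Of the 5 plasmablast markers 1 rose in Pb (*Sdc1*, log2 change 0.89, limma adjusted p = 0.000575) and 1 fell (*Irf4*, -0.25, 0.0225). The part of these markers in the rise of *Socs2* in Pb was not tested.

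The effect of GSK343 on *Socs2* was smaller in Pb than in actB, by 0.67 ± 0.0833 on the log2 scale (interaction term in limma, adjusted p = 0.0272), and *Socs2* was the only member among the 28 genes called (0.248% of those tested), of which 11 (0.0974%) had a higher and 17 (0.150%) a lower effect in Pb (21 and 12 with median scaling). In 5 of the 15 fits with libraries left out limma called no gene at all in this comparison, where 758 to 907 genes had an unadjusted p under 0.05; edgeR on all libraries called 31. The call was lost without DMSO replicate 1 (adjusted p = 0.0769) or 3 (0.0701) or GSK343 replicate 3 (0.105) in actB, and without DMSO replicate 2 (0.0606) or 3 (0.0554) or GSK343 replicate 1 (0.0686) or 3 (0.0965) in Pb, while the difference itself ranged from -0.72 to -0.64. The call of *Socs2* stood in the 13 other settings, the replicate block and edgeR among them (limma or edgeR adjusted p of 0.000149 to 0.0488). For *Socs3* the difference was -0.60 with an interval of -1.13 to -0.08 and an adjusted p of 0.458. For *Cish* it was -0.61 (limma adjusted p = 0.731), and it was called with the block when the merged nB library was given number 1 (0.0494). If the labels that name Il6 for Pb with GSK343 hold, cell type and cytokine cannot be told apart in these differences.

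The genes whose log2 levels were most like those of each member over the 14 libraries, as a description that follows the differences between the 5 groups, were *Usp47* (r = 0.996) and *Slco4a1* (0.994) for *Socs2*, *Dkk3* (0.991) and *Fcgr2b* (0.987) for *Socs3*, and *Ccs* (0.988) and *Slc25a42* (0.987) for *Cish*. For *Socs1* they were *Ift43* (0.971) and *Psmb9*, an interferon-induced proteasome subunit (0.968), and for *Socs5* *Ppp1r13b* (0.986) and *Kmt2c* (0.978). The remaining members had *Gabpb2* (0.965) and *Bicd2* (0.960) for *Socs4*, *Slc26a11* (0.971) and *Oser1* (0.961) for *Socs6*, and *Rbms2* (0.813) and *Pxmp4* (0.807) for *Socs7*. *Socs2* and *Cish* correlated with each other at r = 0.930 and *Cish* and *Socs3* at 0.188.

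Upstream of the family, 3 of 18 receptor chains rose and 12 fell from nB to actB, where 40.9% of all genes rose and 36.3% fell. *Il2ra*, the high-affinity chain of the IL2 receptor, rose from 1.503 ± 0.141 to 38.6 ± 3.76 RPKM (log2 change 4.47), and *Il5ra*, the IL5-binding chain, fell from 19.2 ± 3.65 to 3.75 ± 0.787 (-2.29). From actB to Pb 8 chains were higher and 7 lower, where 27.3% of all genes were higher and 42.4% lower, *Il5ra* returning to 18.7 ± 5.82 (2.22) and *Il10ra* falling from 59.2 ± 10.9 to 9.34 ± 0.140 (-2.62). With GSK343 *Il2rb*, the signalling chain of the IL2 receptor, rose in actB from 8.35 ± 1.51 to 21.2 ± 5.65 RPKM (1.298, limma adjusted p = 0.00319) and in Pb from 7.43 ± 1.90 to 19.3 ± 3.97 (1.35, 0.00206). With it 3 chains rose in actB, and in Pb 4 rose and 4 fell. Of all genes 8.20% rose in actB and 7.90% in Pb, and 565 of 11299 fell in Pb. *Il5ra* fell in Pb with GSK343 from 18.7 ± 5.82 to 9.38 ± 1.77 (-0.95, 0.0181), in the libraries whose labels name Il6. The median log2 change of the chains with GSK343 was 0.14 in actB and -0.02 in Pb, beside 0.03 and 0.00 over all genes.

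Of 4 JAK genes 1 rose and 3 fell from nB to actB, where 40.9% of all genes rose and 36.3% fell. Pb had 2 JAK genes higher and 1 lower than actB, where 27.3% of all genes were higher and 42.4% lower. It had 2 higher and 2 lower than nB, where 39.5% of all genes were higher and 41.1% lower. On activation *Jak3*, which pairs with the common gamma chain, went from 16.9 ± 0.606 to 34.4 ± 6.21 RPKM (log2 change 1.01) and *Jak2* from 42.9 ± 1.51 to 14.8 ± 1.72 (-1.52). Of 7 STAT genes 3 rose and 2 fell from nB to actB, beside the same 40.9% and 36.3% of all genes. In Pb 6 of the 7 were lower than in actB and none higher, where 42.4% of all genes were lower, led by *Stat6*, the IL4-responsive factor, at 17.1 ± 0.504 against 51.3 ± 3.54 RPKM (-1.57). Both genes of STAT5 were lower in Pb, *Stat5a* by a log2 change of -1.01 (limma adjusted p = 3.20e-08) and *Stat5b* by -0.43 (1.39e-05), where its targets *Cish* and *Socs2* were higher. With GSK343 in actB *Stat5a* (0.30, limma adjusted p = 0.0140), *Stat5b* (0.25, 0.0116), *Jak1* (0.16, 0.0449), and *Jak2* (0.35, 0.0392) rose, where 8.20% of all genes rose. In Pb *Jak1* (0.18, 0.0265) and *Tyk2* (0.21, 0.0465) rose and *Stat6* fell (-0.55, 0.000379), where 893 of 11299 genes rose and 565 fell.

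Of 18 STAT target genes outside the family, 8 rose and 9 fell from nB to actB, near the 40.9% and 36.3% over all genes. Pb had 8 higher and 7 lower than actB, where 27.3% of all genes were higher and 42.4% lower. *Gbp2* rose most on activation, from 14.4 ± 0.983 to 347.4 ± 120.0 RPKM (log2 change 4.52), and the immediate early gene *Fos* fell most, from 308.5 ± 0.573 to 0.563 ± 0.0956 (-8.57). With GSK343 in actB 5 rose and 1 fell, where 8.20% of all genes rose and 2.16% fell: *Osm*, the cytokine oncostatin M and a STAT5 target, went from 2.48 ± 0.170 to 8.76 ± 1.86 RPKM (1.70, limma adjusted p = 0.00074), and *Fcer2a*, the low-affinity IgE receptor, from 77.7 ± 3.11 to 42.6 ± 14.3 (-0.91, 0.0373). In Pb 1 rose and 1 fell, where 893 of 11299 genes rose and 565 fell. *Bcl6*, the germinal center repressor, went from 2.08 ± 0.252 to 3.56 ± 0.399 RPKM (0.71, limma adjusted p = 0.000955) and *Fcer2a* from 5.13 ± 0.629 to 1.66 ± 0.715 (-1.56, 0.00217). The median log2 change of these targets with GSK343 was 0.06 in actB and 0.07 in Pb.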

How the data were processed

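RNA was measured in 15 libraries of 5 groups. Per the labels and methods, the authors prepared stranded poly(A) libraries from 500 ng of RNA, mapped reads with TopHat2 to mm9, and counted exon overlaps per Entrez gene with GenomicRanges 1.22.4; strand use in counting is not stated. The deposited values are RPM (each column sums to 1000000). Every value was a whole number of reads within 0.001 RPM (100% of values), and 3 reads equal 0.114 to 0.154 RPM. The 92 genes without a symbol (at most 0.09% of reads) were left out. Floors cover counting error only.

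RPKM was computed here from RPM and the deposited gene length. The 14 distinct libraries were fitted together with limma 3.58.1 (R 4.3.3; eBayes with trend) on log2(RPKM + 0.25) over 11299 genes. Two-sided p-values were adjusted for all of them by Benjamini-Hochberg. The fit was run on simulated data that held no effect of replicate number, so that run cannot show how the fit behaves on samples paired by number. As an alternative, the recovered reads were tested with the quasi-likelihood method of edgeR 4.0.16 over 11146 genes that reached 3 RPM in 3 or more libraries, which called 816 genes higher and 425 lower with GSK343 in actB. Other alternatives were pseudocounts, filters, scalings, the compared groups alone, the replicate block, and libraries left out.

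Samples with the same replicate number were alike in part. Deviations from group means of different cultured groups correlated at 0.158 to 0.502 (number 1), at 0.435 to 0.713 (number 2), and at 0.219 to 0.356 (number 3), with 6 pairs each. Between numbers they correlated at -0.603 to 0.370 (36 pairs). The range of number 2 lay above the range between numbers, and those of numbers 1 and 3 overlapped it. The fit reported has no block; blocked values stand where they change a call. As the merged nB library carries 2 numbers, the block was run with either, and blocked values are with number 1 unless stated.

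Members and gene lists were chosen with earlier results of these data known. Besides members, JAKs, and STATs, genes named are the largest called rise and fall per list and comparison (mean of at least 2 RPKM, no overlap), markers, and the 2 genes most correlated with each member; *Sdc1* in actB, *Adgre1*, *Lyz2* with GSK343, *S100a8*, *S100a9*, and *Csf1r* were named after their values were seen. Positions are 1-based in mm9 (GENCODE vM1) and promoters in GRCm38.p6. Protein identity between members was not analysed here.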

Additional observations from a re-analysis of the deposited data

Results flagged for a closer look

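The response of *Socs2* to GSK343 differed between the cell types by a log2 value of -0.67 (interaction term in limma, adjusted p = 0.0272), being 2.56 to 3.09 times the DMSO level in actB and 1.64 to 1.79 times in Pb, higher in 6 of 6 pairs. Its level with DMSO was 4.08 ± 0.184 RPKM in actB and 19.8 ± 1.18 in Pb (SD, n = 3). The call of the difference was lost in 7 of the 15 fits with libraries left out (limma adjusted p up to 0.105). It stood in the 13 other settings, the replicate block and edgeR among them. If the labels that name Il6 for Pb with GSK343 hold, cell type and cytokine cannot be told apart in this difference.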

How the results depend on the processing

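The log2 changes of the 8 members in 6 comparisons were recomputed under 28 settings: 1270 of 1344 values kept their direction and side of the threshold, 31 passed it newly, 20 no longer passed it, and 23 turned direction, all of the last from values that were not called. The cause of these changes was not tested, except that leaving out libraries means fewer samples. With GSK343 in actB 3 members were called, against 5 with the replicate block (merged nB library as number 1 or 2, and in edgeR) and 1 with the compared groups alone; in Pb 1 was called, against 3 with each block and 2 with the compared groups alone; for the difference of both effects 1 was called, against 2 with the block in limma (number 1) and edgeR. The replicate block changed no calls other than those given with the results and that of *Socs7* between Pb and actB (edgeR, 0.17, adjusted p = 0.0112). With libraries left out, the counts ranged from 2 to 5 in actB, 1 to 2 in Pb, 0 to 1 for the difference, 5 to 6 for Pb against actB, 6 to 7 for Pb against nB, and stayed at 6 for actB against nB.

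*Socs6* with GSK343 in actB (0.01) turned to -0.0247 with median scaling, -0.094 with quantile normalization, and -0.0235, -0.0260, and -0.0238 in edgeR with TMM, RLE, and the replicate block. The difference of effects for *Socs7* (-0.03) turned to 0.00725 with quantile normalization. With libraries left out, values that turned ranged from -0.0229 to 0.0389 for *Socs6* in actB, -0.0883 to 0.148 for *Socs3* and -0.0602 to 0.0274 for *Socs4* in Pb, -0.25 to 0.37 for *Socs1* and -0.0858 to 0.0205 for *Socs7* in the difference of effects, and for *Socs7* -0.16 to 0.10 for actB and -0.0567 to 0.203 for Pb against nB; without replicate 2 in every cultured group *Socs3* was at -0.0505 and *Socs4* at 0.0184 in Pb. The call of *Socs3* in actB was lost with no filter on low values (adjusted p = 0.0534), and that of *Socs6* between Pb and nB with quantile normalization (0.0681). *Socs7* between Pb and actB was also called with quantile normalization (0.0205) and with RLE in edgeR (0.0269).

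Over all genes, the compared groups alone called 339 genes higher and 47 lower with GSK343 in actB against 926 and 244. For the difference of effects 28 genes were called, against 41 with a pseudocount of 1, 18 with quantile normalization, 4 with the compared groups alone, 48 with the columns as deposited, and 222, 61, and 287 with the blocks (limma with number 1, with number 2, and edgeR). With libraries left out, 504 to 1179 genes were called higher and 104 to 561 lower with GSK343 in actB, 472 to 1127 and 218 to 850 in Pb, and 0 to 146 for the difference of effects. It fell to 0 in limma without DMSO replicate 1 or 3 or GSK343 replicate 3 in actB, or without replicate 3 of either Pb group (758 to 907 genes at an unadjusted p under 0.05), and was 4 without either nB library. In edgeR the block gave 1567 genes higher and 1328 lower with GSK343 in actB. Depth limits the lowest levels most, such as *Cish* in nB with 18 and 27 reads.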

Other observations

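Of 11 negative regulators outside the family, which are other brakes of JAK-STAT signalling, 2 rose and 6 fell from nB to actB, where 40.9% of all genes rose and 36.3% fell. Pb had 2 higher and 6 lower than actB, where 27.3% of all genes were higher and 42.4% lower. *Pias3*, an inhibitor of STAT3, went from 14.9 ± 0.105 RPKM in nB to 5.90 ± 0.155 in actB and 7.32 ± 0.390 in Pb with DMSO. *Ptpn6*, the phosphatase SHP-1, was at 156.2 ± 0.245 RPKM in actB and 47.8 ± 2.03 in Pb (log2 change -1.71), and *Sh2b3*, the adaptor LNK, fell from 69.6 ± 2.51 in nB to 8.998 ± 0.239 in Pb (-2.92). With GSK343 *Ptpn1* rose in actB from 50.2 ± 3.67 to 66.2 ± 3.03 RPKM (0.40, limma adjusted p = 0.0049).

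RNA of the proteins that the SOCS box recruits mostly rose on activation. Of 8 genes for elongins, cullins, and their neddylation partners, 7 rose and none fell from nB to actB, with a median log2 change of 0.60 beside 0.05 over all genes, where 40.9% of all genes rose. *Cul2* went from 9.83 ± 0.581 to 25.6 ± 1.16 RPKM (1.36), and *Cul5*, the cullin that most SOCS proteins use, was 6.65 ± 0.780 in Pb against 9.83 ± 0.530 in actB (-0.55). With GSK343 only *Cul2* was called of the 8, in actB, with a log2 change of -0.24 (limma adjusted p = 0.0165), where 2.16% of all genes fell.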
